A study of Mus musculus with 8 samples.

Results

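The sites described here are 2234 regions of autosomal chromatin that lay far from genes and were listed as accessible in *Arid1a* cKO pachytene spermatocytes but not in *Arid1a* WT cells. They were selected on 2 kinds of value, their presence in the cKO peak list together with absence from the WT list, and their position. A cKO peak was taken when it lay on 1 of the 19 autosomes, was under 5000 bp wide, shared no base with a WT peak, and had its midpoint outside every annotated gene and at least 10000 bp from every annotated transcription start. They are called gained distal peaks, and they made up 2234 of the 30244 peaks in the cKO list. The 1435 distal cKO peaks that passed the same position filters and did overlap a WT peak are called shared distal peaks and serve as the comparison.

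Chromatin accessibility was measured by ATAC-seq, in which a transposase inserts sequencing adapters into exposed DNA, on 100000 cryopreserved cells per library and 4 libraries per genotype. The cells were pachytene spermatocytes, male germ cells in meiotic prophase, purified by gravity sedimentation from pooled testes of adult mice that carried floxed *Arid1a* on a CD1 background. The *Arid1a* cKO was *Arid1a* fl/fl; *Stra8-Cre* Tg/0, with Cre driven from spermatogonia onward, and the *Arid1a* WT carried floxed *Arid1a* (fl/fl or fl/+) without Cre. Excision was incomplete, so some cells of the cKO libraries still had ARID1A. The authors deposited 1 peak list per genotype, which gives no spread between libraries. Intervals below cover counting error over peaks only, and neighbouring peaks are not independent.

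ARID1A is a DNA-binding subunit of BAF, a SWI/SNF complex that uses ATP to move or evict nucleosomes. Distal accessible sites in mammalian cells are mostly enhancers, CTCF-bound loop anchors and transposable elements whose terminal repeats or promoters bind transcription factors. Some transposable elements are transcribed in male germ cells, where small RNAs and DNA methylation act to silence them.

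Sequences are shown first for the largest group of similar sites among the gained distal peaks, named family 1 below, because its copies supplied most of the strongest sites. The first run is the strongest gained distal peak, centred in chr12:9834567-9834866 (mm10, plus strand). The next is the family's representative, at chr14:105875158-105875457 (mm10, plus strand), picked among its gained copies by the number of links to similar peaks. Capitals mark the CCAAT box, CCAATCNG on either strand, the site of the trimeric factor NF-Y.
chr12 copy: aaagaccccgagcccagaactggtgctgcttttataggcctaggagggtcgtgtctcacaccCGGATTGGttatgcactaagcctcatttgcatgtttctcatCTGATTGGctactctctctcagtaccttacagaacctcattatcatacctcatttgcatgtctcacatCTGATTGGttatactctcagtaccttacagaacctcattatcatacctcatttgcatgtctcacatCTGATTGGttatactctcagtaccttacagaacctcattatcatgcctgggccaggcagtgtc
chr14 copy: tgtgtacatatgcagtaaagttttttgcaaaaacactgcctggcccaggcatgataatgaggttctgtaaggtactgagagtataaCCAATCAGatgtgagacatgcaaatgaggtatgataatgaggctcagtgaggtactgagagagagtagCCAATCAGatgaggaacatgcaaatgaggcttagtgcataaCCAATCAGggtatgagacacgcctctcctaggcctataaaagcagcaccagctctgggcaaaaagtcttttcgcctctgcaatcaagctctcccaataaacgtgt

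The chr12 run held 4 matches, all read on the opposite strand, and the chr14 run held 3. Past the last box, each run held TATAAA on the strand of its boxes, the letters of a TATA element. For contrast, 3 strong gained distal peaks made only of unique sequence are shown, with capitals for the motif each held: an E-box (CAGCTG, the site of basic helix-loop-helix factors) at chr5:52521335-52521634, a CCAAT box at chr17:45237544-45237843 and a MYB site (GGCNGTT, bound by A-MYB, a regulator of meiotic genes) at chr2:70629720-70630019, all mm10, plus strand.
chr5 site: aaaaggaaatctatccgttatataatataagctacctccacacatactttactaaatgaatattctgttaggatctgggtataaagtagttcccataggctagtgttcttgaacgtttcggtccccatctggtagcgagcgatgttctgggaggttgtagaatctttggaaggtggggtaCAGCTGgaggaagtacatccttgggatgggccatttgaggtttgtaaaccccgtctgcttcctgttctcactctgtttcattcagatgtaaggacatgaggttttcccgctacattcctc
chr17 site: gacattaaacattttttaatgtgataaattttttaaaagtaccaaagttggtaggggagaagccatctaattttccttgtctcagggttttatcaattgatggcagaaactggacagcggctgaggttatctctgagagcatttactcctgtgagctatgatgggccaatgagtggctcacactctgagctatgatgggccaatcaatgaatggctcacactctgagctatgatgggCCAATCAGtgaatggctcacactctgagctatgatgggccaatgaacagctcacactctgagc
chr2 site: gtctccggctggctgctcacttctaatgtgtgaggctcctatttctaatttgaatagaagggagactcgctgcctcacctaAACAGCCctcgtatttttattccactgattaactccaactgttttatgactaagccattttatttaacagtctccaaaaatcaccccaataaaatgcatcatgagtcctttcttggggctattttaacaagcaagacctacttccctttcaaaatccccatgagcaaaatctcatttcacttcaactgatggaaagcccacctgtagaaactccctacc

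Most distal cKO peaks were gained, and most promoter peaks were not. Of 3669 distal peaks, 60.9% were gained (95% Wilson interval, 59.3 to 62.5), against 43.7% of all 28071 autosomal cKO peaks under 5000 bp. Since the rule used this contrast, the share is a description. Distal, gene body and promoter peaks were not matched for strength. The gained share was 55.3% in gene bodies (54.4 to 56.2) and 19.4% at promoters (18.6 to 20.2), the latter defined as 1000 bp before to 100 bp after a start. Of the 35 distal peaks of 5000 bp or wider, 0 were gained. In the other direction, 188 of 1755 distal WT peaks (10.7%) shared no base with a cKO peak.

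Outside genes, the change in gained share lay close to the start and not further out. It was 17.5% (16.21 to 18.96) for peaks under 1 kb from a start and 63.5% (61.1 to 65.8) at 1 to 5 kb. Beyond 5 kb it stayed between 57.0% (50 to 100 kb) and 63.9% (10 to 20 kb, 61.5 to 66.3), with no steady trend. At 100 kb or more it was 62.1% (56.1 to 67.8). The gained distal peaks lay a median of 22684 bp from the nearest start, with quartiles of 14594 and 43108 bp, and the shared distal peaks a median of 24838 bp. A distance of at least 100 kb was reached by 164 gained distal peaks (7.34%) and 100 shared distal peaks (6.97%).

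Gained distal peaks were weaker and narrower than shared ones. Their median fold enrichment, the ratio of summit pileup to background in the authors' list with 1 added to each, was 3.60 against 5.24 for shared distal peaks, and 80% of them lay between 2.78 and 5.24. The highest was 16.9 among gained and 62.5 among shared distal peaks. Median −log10 q was 5.44 against 12.5, and median width 493 bp (95% interval, 475 to 512) against 1039 bp (998 to 1075). Weak peaks are more easily missed in the other list, so these values describe the selection and were not tested. The gained distal peaks covered 1327 kb of the genome in all.

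A peak can take several rows of its list, as intersecting the replicates would give. A row does not name its library and some gained distal peaks had 4 to 6 rows, so the number of rows is not a count of agreeing libraries. A total of 1281 gained distal peaks (57.3%) lay on 3 or more rows, 555 (24.8%) on 2 and 398 (17.8%) on 1. Among shared distal peaks, 93.2% lay on 3 or more rows. The lists hold no pileup, and pileup and background were recovered from the steps of the fold values, which gave whole pileups to within 0.05 for 100% of peaks. The background stood at 5.11 fragments per base for the cKO and 4.33 for the WT, a ratio of 1.18. With summit pileups scaled down by that ratio, 104 gained distal peaks (4.66%, 95% Wilson interval, 3.86 to 5.61) fell under 13 fragments, the lowest summit of the WT list, and 6 shared distal peaks (0.418%) did. The part of sequencing depth in the remaining peaks was not tested.

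Most gained distal peaks stood well clear of any WT peak. The nearest WT peak was a median of 41064 bp away, with quartiles of 13667 and 126695 bp, and 656 gained distal peaks (29.4%) had none within 100 kb. Only 69 (3.09%) had a WT peak within 1000 bp. The closest approach was 27 bp, for a peak at chr1:150279356-150280238 with a fold enrichment of 3.11. Just outside the rule, a cKO peak at chr15:74656434-74656737 shared 1 bp with a WT peak and had a fold enrichment of 2.78. At the distance limit, the peak just inside lay 10000 bp from a start (chr6:119554090-119554604, fold enrichment 3.11) and the one just outside 9977 bp (chr11:79286748-79287109, fold enrichment 2.78). The widest gained distal peak spanned 4487 bp (chr7:52912531-52917017, fold enrichment 3.93).

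When distal peaks were split into 5 classes by fold enrichment, the gained share was 85.8% in the weakest class (686 of 800), 77.8%, 70.3% and 51.3% in the next 3, and 19.3% in the strongest (142 of 736). The composition of the gained peaks also changed along this scale. Family 1 held 6 of 686 gained peaks in the weakest class, 59 of 387 (15.2%) in the fourth and 67 of 142 (47.2%) in the strongest.

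**Figure D1:**
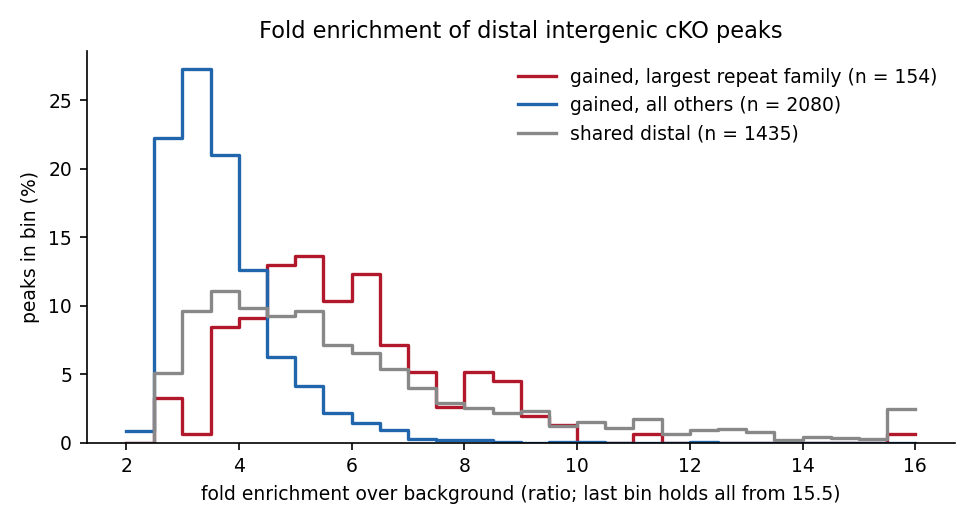
Fold enrichment over background (ratio, x axis, bins of 0.5) against the percentage of peaks in each bin, for the 154 gained distal peaks of family 1, the other 2080 gained distal peaks and the 1435 shared distal peaks. The other gained peaks were most frequent at 3.0 to 3.5 (27.3% of them), whereas family 1 was most frequent at 5.0 to 5.5 (13.6%), inside the range of the shared peaks.

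Among the members on 3 or more rows, 7 of the 10 with the highest −log10 q belonged to family 1. The nearest protein-coding start to the first, 260276 bp away, was that of *Osr1*, an odd-skipped zinc-finger transcription factor. This peak (chr12:9834578-9834855, 278 bp) had a fold enrichment of 16.9, a recovered summit pileup of 102 fragments and a −log10 q of 89.95. Of its sampled 50-mers, 20% occurred once in the reference. The second, 44818 bp from *Lgi2*, which encodes a secreted leucine-rich-repeat protein, was made of unique sequence only, with a fold enrichment of 12.4 and a width of 1337 bp. These 2 peaks stood above the remaining 8, whose fold enrichment ran from 8.84 to 10.15.

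The third lay 52338 bp from *Auts2*, a partner of Polycomb complexes, at a fold enrichment of 10.15, and 4215 bp from a WT peak. It belonged to a different family, number 8. The fourth lay 17436 bp from *Zfp512*, a zinc-finger gene, at 9.82. The peak 12066 bp from *Eya2*, a transcriptional coactivator with phosphatase activity, and that 177990 bp from *Cdc5l*, a splicing factor, both had a fold enrichment of 9.66. The *Cdc5l* peak was of unique sequence and the *Eya2* peak of family 1. The last 4 lay nearest to *Aldh3a1*, *Fermt1*, *Gcfc2* and *Vat1l*, all of them family 1 copies with 0 to 6.67% unique 50-mers.

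Among members of unique sequence only, on 3 or more rows, the *Lgi2* and *Cdc5l* peaks led, followed by a peak 31706 bp from *Gorasp2*, which encodes a Golgi stacking protein (chr2:70629592-70630147, fold enrichment 8.51). The next 2, near *Trhde*, a peptidase that degrades thyrotropin-releasing hormone, and *Mrm1*, a mitochondrial rRNA methyltransferase, each had a fold enrichment of 8.02. The *Trhde* peak lay 932563 bp from that start and 444416 bp from any WT peak. Further peaks of this set were nearest to *Nfe2l3*, *Marc1*, *Arpin* and *Chst14*, with fold enrichments of 7.86, 7.69, 7.20 and 6.71. The *Nfe2l3* peak alone among these lay close to a WT peak, at 1542 bp. GC content ran from 39.2% at *Nfe2l3* to 66.8% at *Chst14*, so the strong unique sites were not of 1 base composition.

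The 3 members farthest from any annotated start, at 518399, 401051 and 372674 bp, were all family 1 copies. They lay on chromosomes 6, 4 and 15, and their nearest protein-coding starts were those of *Kcnd2* (a potassium channel subunit), *Cylc2* (a sperm head protein) and *Ctnnd2* (a catenin). Their fold enrichments were 7.53, 6.22 and 2.78.

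The gained distal peaks were compared with the shared distal peaks in features that the rule did not use, beginning with base composition. Median GC content was 49.9% (95% interval, 49.6 to 50.1) in gained and 51.7% (51.4 to 52.0) in shared distal peaks, a difference of −1.78 points (−2.20 to −1.37). The gained peaks had the lower median on 18 of 19 autosomes, and within each class of fold enrichment the interval of the difference lay under 0. In both sets the DNA 2000 bp away had less GC, with medians of 44.1% and 43.8% against 49.8% and 52.5% in the central 400 bp.

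CpG-rich sites were also less frequent among the gained peaks. A peak was called CpG-island-like at a GC content over 50%, an observed to expected CpG ratio over 0.6 and a width of at least 200 bp. This held for 116 gained (5.19%, 4.35 to 6.19) and 165 shared distal peaks (11.5%, 9.95 to 13.2), a difference of −6.31 points (−8.25 to −4.46), and the gained share was lower on 18 of 19 autosomes. Among peaks of unique sequence the difference was −1.75 points (−3.41 to −0.303). By class of fold enrichment the interval lay under 0 in all but the strongest class, where the difference was −3.76 points (−7.77 to 1.94). The part of the narrower width of gained peaks in this share was not tested. Gained promoter peaks reached 32.2%. The median CpG ratio was 0.270 against 0.301, a difference of −0.0304 (−0.0486 to −0.0123). Within classes of fold enrichment every interval of the CpG ratio difference contained 0, so the ratio did not differ detectably between peaks of like strength.

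Gained distal peaks held more unique sequence than shared ones. At least 50% of the sampled 50-mers were unique in 1855 gained (83.0%, 81.4 to 84.5) and 965 shared distal peaks (67.3%, 64.8 to 69.6), a difference of 15.8 points (12.9 to 18.7) that had the same sign on all 19 autosomes. All 50-mers were unique in 63.6% and 42.7%. The direction depended on strength. In the weakest class the shares were 81.1% and 35.1%, and in the strongest class they were 64.1% of gained and 76.4% of shared peaks, a difference of −12.4 points (−21.1 to −4.11). Repeat-masked bases made up a median of 18.4% of gained and 26.5% of shared distal peaks, a difference of −8.16 points (−11.1 to −5.25) that turned to 11.5 points (3.404 to 19.55) where −log10 q was 10 or more. Gained peaks at promoters and in gene bodies had medians of 7.23% and 8.97%.

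To see which distal sites were copies of each other, the central 400 bp of all 3669 distal peaks were aligned to one another and grouped by 80% identity over at least 200 bp. This gave 62 families with more than 1 peak, which held 519 gained (23.2%) and 492 shared distal peaks (34.3%). The other 1715 gained distal peaks had no such partner. In all, 10 families had 20 or more distal peaks, and their gained shares are read beside the 60.9% of all distal peaks. No repeat annotation was used here, so the families are described by their letters and not named.

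Family 1 was the largest, with 202 distal peaks, of which 154 were gained (76.2%, 69.9 to 81.6). These 154 were 6.89% of all gained distal peaks and lay on all 19 autosomes. Their median fold enrichment was 5.56, against 3.44 for gained distal peaks outside the family, and their median width 375 bp. The 48 shared copies of the family were stronger, with a median fold enrichment of 8.18. Every one of the 202 held at least 1 CCAAT box. Among the gained copies, 151 of 154 (98.1%) held 2 or more boxes on 1 strand and 134 (87.0%) 3 or more, against 8 and 4 of the 2080 other gained distal peaks. Family 1 was grouped by sequence, so this contrast with other peaks follows from the grouping and is a description. Of the 48 shared copies, 43 (89.6%) held 3 or more. Neighbouring boxes started a median of 41 bp apart, with quartiles of 24 and 66 bp. A TATAAA run followed the last box within 150 bp in 57 gained copies (37.0%), at a median of 34 bp, and in 23 of the 48 shared copies (47.9%). The polyadenylation letters AATAAA were in the window of 76 gained copies (49.4%), 19 shared copies (39.6%) and 16.2% of other gained distal peaks.

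**Figure D2:**
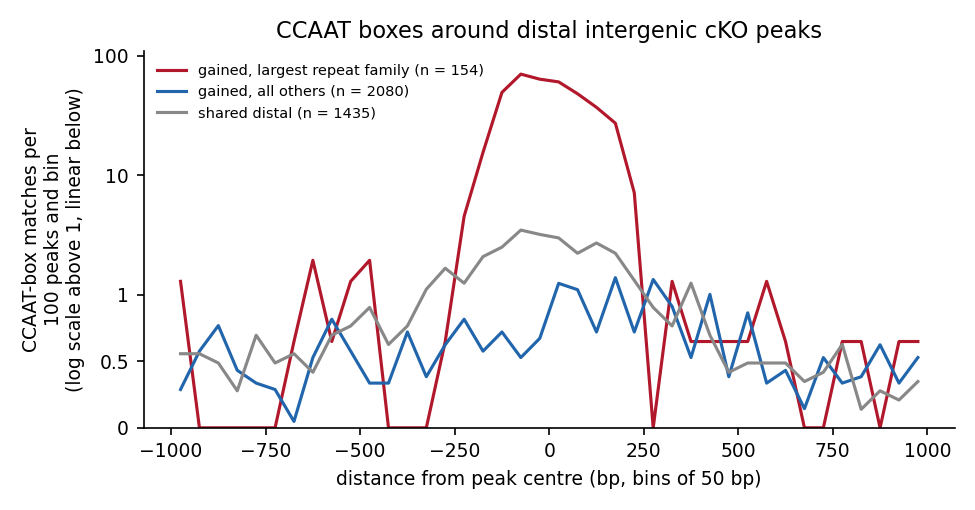
Matches to the CCAAT box per 100 peaks in bins of 50 bp (y axis, log scale above 1 and linear below) against distance from the peak centre (bp, x axis), for gained distal peaks of family 1, other gained distal peaks and shared distal peaks. Family 1 rose to 70.1 matches per 100 peaks beside the centre and fell to the level of the other sets within 300 bp, while the other gained peaks stayed at or under 1.39.

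Family 1 weighed most among the strongest sites. It supplied 15 of the 20 gained distal peaks with the highest −log10 q, 32 of the top 50 and 51 of the top 100, and 113 of the 392 with a −log10 q of at least 10 (28.8%). Its copies were partly resolvable by sequence. At least 50% of the 50-mers were unique in 55 of the 154, and none had only unique 50-mers. The median fold enrichment was 5.40 in these 55 and 5.89 in the other 99, and 33 and 64 of them, respectively, lay on 3 or more rows. Among the 69 family 1 peaks of unique sequence, 55 were gained (79.7%, 68.8 to 87.5). The authors stated no filter on mapping quality and the reference genome is from another strain than the mice. The part of either in the family's peaks was not tested.

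The reference autosomes held 1165 copies that matched the family's representative, a gained peak, at 80% identity or more over at least 320 bp. This set left out part of the family, which had 202 distal cKO peaks, while 75 distal intergenic copies lay under a cKO peak. Of the 1165 copies, 211 (18.1%) lay under a cKO peak and 57 (4.89%) under a WT peak. In detail, 159 were under a cKO peak only, 52 under peaks of both lists, 5 under a WT peak only and 949 under neither. Copies under a cKO peak outnumbered those under a WT peak inside genes, in distal intergenic sequence and elsewhere. This is read beside the lengths of the lists, 30244 and 19309 peaks. The family was built from distal cKO peaks, so the distal intergenic excess follows at least in part from the selection. Inside genes, 66 of 289 copies (22.8%) lay under a cKO peak and 14 (4.84%) under a WT peak. Among distal intergenic copies, 75 (12.9%) and 21 (3.61%) of 581 did, and among the other 295 copies 70 (23.7%) and 22 (7.46%). The share under a cKO peak was thus lowest among distal intergenic copies.

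Copies under peaks of both lists had the highest median identity to the family's representative, which was itself a gained peak. Median identity was 91.5% (95% interval, 90.5 to 94.2) for copies under a cKO peak only, 95.5% (92.3 to 98.3) for copies under both and 90.4% (90.2 to 90.6) for copies under neither. The first interval overlapped the second, and it overlapped the last slightly. Of copies at 95% identity or more, 25.6% lay under a cKO peak and 9.84% under a WT peak, against 12.3% and 2.18% at 85 to 90% identity. The trend was not steady, since the least similar copies, at 80 to 85%, had 17.3% and 5.33%. By number of CCAAT boxes the shares also differed. A cKO peak covered 174 of 883 copies with 3 boxes (19.7%), 32 of 242 with 2 (13.2%) and 1 of 30 with 1 (3.33%). Most copies under neither list also held several boxes, with 2 or more in 918 of 949 (96.7%) and 3 or more in 709 (74.7%).

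The other families differed in which list held them. Family 2, with 153 distal peaks, had a GC content of 65.3% and a median of 1104 reference copies per 50-mer. It carried a YY1 site (AANATGGCG, bound by the zinc-finger factor YY1) in 148 of 153 peaks. Of these 153 peaks, 41 were gained (26.8%, 20.4 to 34.3), so most of its distal cKO peaks were also in the WT list. Its representative, picked among its gained peaks only, is shown at chr13:16500222-16500521 (mm10, plus strand) with the YY1 site in capitals. It sets a family found mostly in both lists beside family 1, though the peak shown was itself gained. The run held 2 matches, both read on the opposite strand.
chr13 copy: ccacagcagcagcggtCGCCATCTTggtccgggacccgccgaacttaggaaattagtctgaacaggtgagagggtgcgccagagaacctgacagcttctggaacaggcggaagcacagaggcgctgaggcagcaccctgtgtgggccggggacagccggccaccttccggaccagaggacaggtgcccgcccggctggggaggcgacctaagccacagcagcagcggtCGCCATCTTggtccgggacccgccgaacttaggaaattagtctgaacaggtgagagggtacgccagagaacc

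Family 3 (129 peaks, 31.8% gained), family 4 (103, 37.9%), family 6 (39, 38.5%), family 7 (35, 34.3%) and family 8 (32, 34.4%) likewise lay under the 60.9% of all distal peaks. Family 7 carried the YY1 site too, in 34 of 35 peaks. Above it lay family 5, with 55 of 78 peaks gained (70.5%, 59.6 to 79.5), family 9, with 20 of 25 (80%, 60.9 to 91.1), and family 10, with 16 of 22 (72.7%, 51.9 to 86.9). The intervals of these 3 families reached down to 60.9% or below. Of the 20 gained peaks of family 9, 0 were of unique sequence and 1 lay on 3 or more rows. Their median fold enrichment was 3.03. All 55 gained peaks of family 5 were of unique sequence, with a median fold enrichment of 3.60, and a run of GAGAGAGA was found in 61 of its 78 peaks. Family 10 was of unique sequence as well, carried a CCAAT box in 21 of 22 peaks, and had the highest median among gained peaks of these families, 6.30.

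Read by reference copies, each of the first 9 families had more copies under cKO than under WT peaks, which is read beside the lengths of the lists, 30244 and 19309 peaks. The copies were matched to 1 gained representative per family over at least 320 bp and need not cover the whole family. Family 5, with 78 distal cKO peaks, had 23 copies under any cKO peak. The gap was widest in relative terms for family 5, with 23 and 6 of 133 copies, and family 1. It was 304 and 249 of 2743 copies in family 2, 220 and 174 of 1995 in family 3, and 157 and 119 of 280 in family 8. Family 4, the most abundant, with 68446 copies, had 273 under a cKO and 163 under a WT peak. Family 10 had 1 copy by this measure, so no share is given.

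**Figure D3:**
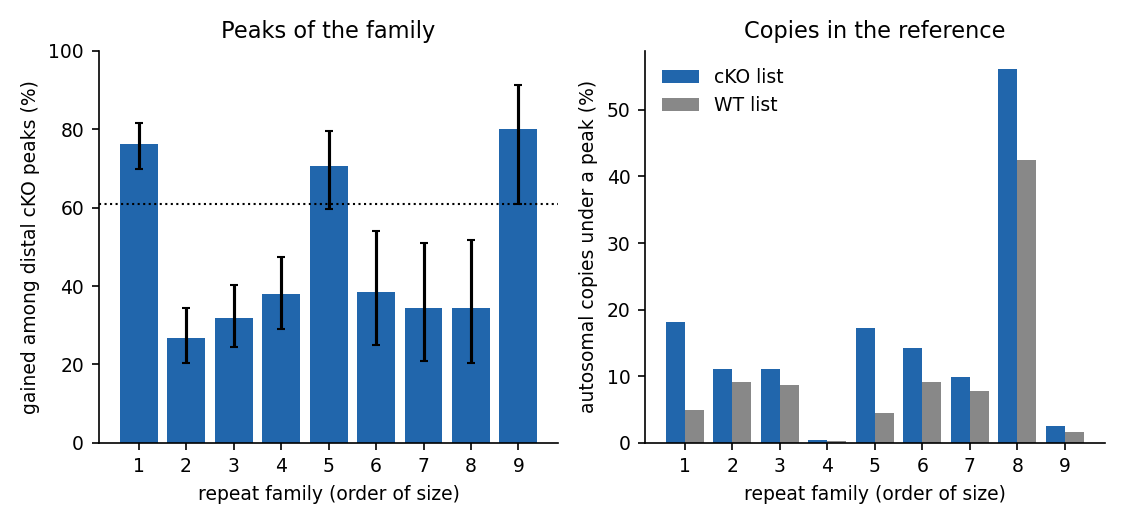
Left, percentage of the distal cKO peaks of each family that were gained (y axis, error bars are 95% Wilson intervals, dotted line at the 60.9% of all distal peaks) for the 9 largest families (x axis). Right, percentage of each family's autosomal reference copies, as matched to its representative, under a cKO or a WT peak. Families 1, 5 and 9 stood above the line at 76.2%, 70.5% and 80%, and in families 1 and 5 the cKO bar was over 3 times the WT bar.

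Short motifs were then read in the central 400 bp on both strands, with the windows 2000 bp to either side as local background. The 15 motifs were counted independently, also where matches overlapped, and the intervals are not adjusted for their number. The CTCF consensus, bound by the zinc-finger factor at loop anchors, was found in 48 gained distal peaks (2.15%, 1.62 to 2.84), 14 shared distal peaks (0.976%, 0.582 to 1.63), 0.381% of flanking windows of gained peaks and 1.32% of all autosomal cKO peaks. The difference was 1.17 points (0.334 to 1.97), with a higher gained share on 13 autosomes and a lower one on 4. Allowing 1 mismatch gave 9.62% and 5.99%, a difference of 3.63 points (1.86 to 5.34). By class of fold enrichment this difference was 8.01 points (3.65 to 10.5) in the weakest, 0.673 (−3.21 to 4.53) in the fourth and −1.80 (−5.22 to 3.395) in the strongest. Among peaks of unique sequence the exact match differed by 1.08 points, with an interval that contained 0 (−0.0696 to 2.09). Read over the whole peak, which is wider in shared peaks, the shares were 2.999% and 3.484% and the difference had the opposite sign, −0.485 points (−1.74 to 0.663). Within each class of fold enrichment the exact match was more frequent in gained peaks, and each of these intervals contained 0.

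The strongest gained distal peak with the CTCF consensus lay at chr19:44684255-44684575, 71630 bp from *Pax2*, a developmental transcription factor, with a fold enrichment of 5.89. Its match is in capitals in the 60 bp at chr19:44684311-44684370 (mm10, plus strand).
chr19 site: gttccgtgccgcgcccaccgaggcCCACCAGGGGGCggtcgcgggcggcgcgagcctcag

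The CCAAT box was more frequent and the YY1 site less frequent in gained than in shared distal peaks, and both differences were tied to repeated sequence. The CCAAT box was found in 278 gained (12.4%, 11.1 to 13.9) and 131 shared distal peaks (9.13%, 7.75 to 10.7), in 3.02% of flanking windows and in 7.60% of all autosomal cKO peaks. The difference was 3.32 points (1.25 to 5.31). It grew with strength, to 27.9 points (22.6 to 33.2) where −log10 q was 10 or more and 48.4 points (39.7 to 56.3) in the strongest class of fold enrichment. Without family 1 the shares were 5.96% and 5.98%, a difference of −0.0226 points (−1.69 to 1.56). The YY1 site was found in 4.66% of gained and 10.7% of shared distal peaks, a difference of −6.08 points (−7.96 to −4.30), and in 4.15% of all autosomal cKO peaks. Among peaks of unique sequence that difference was 0.138 points (−1.11 to 1.20).

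The MYB site GGCNGTT was found in 19.9% of gained (18.3 to 21.6) and 16.6% of shared distal peaks (14.8 to 18.6), a difference of 3.33 points (0.760 to 5.84). It was in 11.4% of the flanking windows of gained peaks and in 18.02% of all autosomal cKO peaks. Without family 1 the difference was 3.59 points (0.916 to 6.19). The strongest gained peak with this site is the one near *Gorasp2* printed above.

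Several motifs were more frequent in gained than in shared distal peaks but at or under their share in the flanking windows, or close to it. AP-1 (TGANTCA, FOS and JUN factors) was in 9.76% and 7.11%, a difference of 2.65 points (0.794 to 4.43), beside 11.03% of flanking windows. The letters AGATAAG of GATA factors were in 4.79% and 3.14%, beside 5.17%. The nuclear receptor site AGGTCANAG was in 3.04% and 1.81%, beside 2.80%, and the CACACACA repeat in 9.04% and 5.65%, beside 13.9%. In all autosomal cKO peaks these 4 were in 7.30%, 3.10%, 2.50% and 6.97%. The GAGAGAGA repeat stood above it, with 13.8% and 9.20% beside 8.37% of flanking windows and 6.75% of all autosomal cKO peaks. Its difference, 4.63 points (2.52 to 6.67), was 1.97 (0.101 to 3.77) without family 1.

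For the remaining motifs the interval of the difference contained 0. They were CRE (TGACGTCA, CREB, CREM and ATF factors), NRF1 (CGCATGCG), ETS (CCGGAAGT), the GC box (GGGGCGGGG, SP and KLF factors), RFX (GTTGCCATG) and the E-box. Gained distal peaks held them in 0.940%, 1.52%, 1.75%, 2.95%, 1.34% and 17.99% of windows, and all autosomal cKO peaks in 1.59%, 1.92%, 3.63%, 10.01%, 1.18% and 20.6%. In flanking windows they were in 0.269%, 0.112%, 0.358%, 0.895%, 0.515% and 15.7%, so all 6 were more frequent at the peak than beside it. The strongest gained distal peak with a CRE lay 174978 bp from *Esrrg*, an orphan nuclear receptor, with a fold enrichment of 6.38. It is shown at chr1:187433920-187433979 (mm10, plus strand) with the CRE in capitals.
chr1 site: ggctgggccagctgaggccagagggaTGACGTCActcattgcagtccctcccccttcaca

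**Figure D4:**
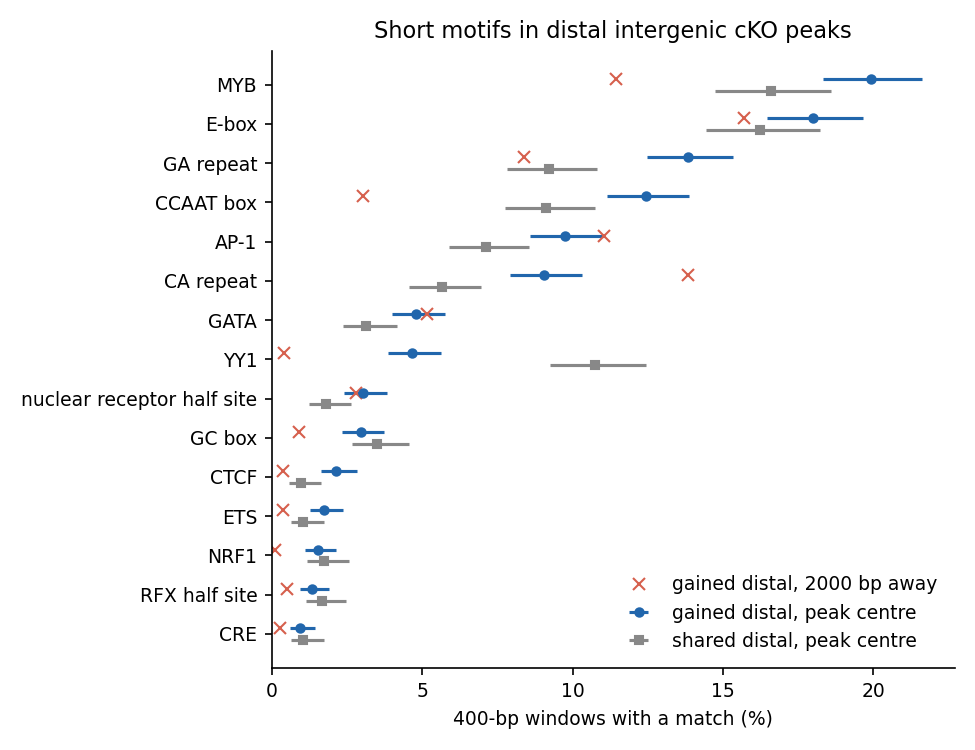
Percentage of 400-bp windows with a match to each motif (x axis), at the centre of the 2234 gained and the 1435 shared distal peaks (points, with 95% Wilson intervals) and 2000 bp away from the gained peaks (crosses). The YY1 interval of gained peaks (3.86 to 5.61) lay under that of shared peaks (9.23 to 12.4), and for AP-1, GATA and the CA repeat the cross lay to the right of the gained point.

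Gained distal peaks were found on every autosome, at 0.932 per Mb of known sequence over all autosomes, against 0.599 for shared distal peaks. The highest density was on chromosome 17, with 119 peaks at 1.30 per Mb (exact Poisson 95% interval, 1.08 to 1.55), and the lowest on chromosome 3, with 101 at 0.646 (0.526 to 0.785). Chromosomes 1 and 3 had intervals wholly under the autosomal value, and chromosomes 5, 11 and 17 intervals wholly above it. The gained share of distal peaks ran from 55.0% on chromosome 5 to 71.3% on chromosome 10. All cKO peaks were also unevenly spread, from 7.62 per Mb on chromosome 3 to 17.95 on chromosome 11.

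**Figure D5:**
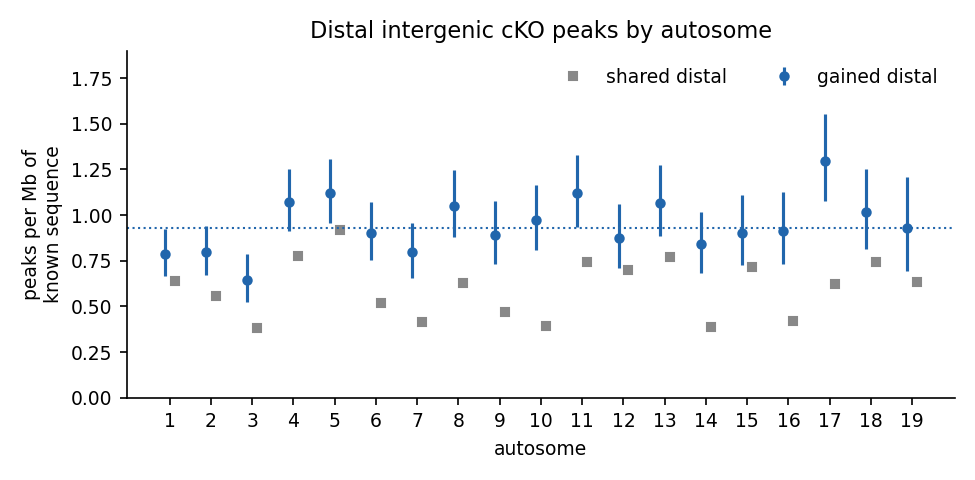
Distal cKO peaks per Mb of known sequence (y axis) on each of the 19 autosomes (x axis), gained with exact Poisson 95% intervals and shared as squares, with the autosomal gained value of 0.932 as a dotted line. Chromosome 17 was highest at 1.30 and chromosome 3 lowest at 0.646, and gained exceeded shared peaks on every autosome.

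Some gained distal peaks lay in runs. A total of 654 (29.3%, 27.4 to 31.2) had another gained distal peak within 50 kb, and 315 shared distal peaks (22.0%) had another shared one, in a smaller set. When peaks up to 50 kb apart were chained, 1580 stood alone, 204 chains had 2 members and 4 chains had 7 or more. The longest had 12 members in 41.5 kb of chromosome 7 (69894469 to 69935942), where the nearest protein-coding start, that of *Nr2f2*, was 443492 bp from the chain's middle. *Nr2f2* encodes the nuclear receptor COUP-TFII, a regulator of mesenchymal and Leydig cell development. All 12 were of unique sequence and weak, with fold enrichments from 2.62 to 4.26, and 9 lay on 3 or more rows. Of the 12, 3 held an AP-1 site and 1 a CCAAT box, and 2 shared distal peaks lay in the same span.

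The next chain had 10 members in 22.7 kb of chromosome 14, its middle 28872 bp from *Dlg5*, a scaffold protein of the membrane-associated guanylate kinase family, with fold enrichments from 2.45 to 4.42, and a WT peak lay 319 to 6500 bp from each member. The third had 8 in 37.9 kb of chromosome 12 near *Gpr65*, an acid-sensing receptor, beside 8 shared distal peaks. These chains were of unique sequence. A chain of 7 near *Gm21953* on chromosome 4 had 0 peaks of unique sequence and only 1 on 3 or more rows.

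Every gained distal peak was assigned to the protein-coding gene with the nearest start, which names a neighbour and not a target. A gene with few other starts around it can collect more peaks. The shares of genes given below take no account of this. This gave 1681 genes, of which 1305 had 1 peak and 15 had 5 or more. *Nr2f2* led with 13, followed by *Dlg5* with 10 and *Atp23* with 8. Of all gained distal peaks, 56.1% lay upstream of their gene's start. The rule removed centres inside genes, downstream of a start, so this share follows in part from the rule and is a description. A shared promoter peak lay within 50 kb of 680 gained (30.4%, 28.6 to 32.4) and 387 shared distal peaks (26.97%, 24.74 to 29.32), and a gained promoter peak within 50 kb of 200 (8.95%, 7.84 to 10.2) and 113 (7.88%, 6.59 to 9.38).

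Among lists of genes, the neighbours included subunits of BAF itself. Of 20 autosomal BAF genes, 3 were nearest to a gained distal peak, with 8 peaks among them (0.358% of gained distal peaks, where BAF genes were 0.0963% of genes), against 1 shared distal peak. Over all genes, 1681 of 20780 were nearest to a gained distal peak. *Arid1b*, the paralogue of *Arid1a*, had 5 of these, all upstream on chromosome 17 at 72188 to 550983 bp from its start and all of unique sequence. Their fold enrichments were 3.60, 3.27, 4.91, 3.44 and 3.60, and 3 of the 5 lay on 3 or more rows. *Ss18*, a BAF subunit, had 2 at fold enrichments of 3.93 and 5.56, lying 248543 and 124909 bp from its start. *Smarca2*, an alternative ATPase of the complex, had 1 at 3.44, lying 370591 bp away.

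Of 23 pachytene genes, 4 had a gained distal peak as neighbour, or 0.179% of these peaks for a list that made up 0.111% of genes. *Mybl1*, which encodes A-MYB, had one 19829 bp downstream at a fold enrichment of 3.60, and *Syce1*, a synaptonemal complex protein, one 12738 bp upstream at 3.76. *Piwil1*, a piRNA-binding protein, and *Hormad2*, a chromosome axis protein, had peaks at 2.95 and 3.76. The *Mybl1* and *Syce1* peaks held a MYB site, as did those near *Tnp1* and *Inhbb* of other lists, and the *Piwil1* and *Hormad2* peaks did not. Among Sertoli cell genes, *Sox9* had 3, lying 153588 to 725551 bp from its start. The strongest of these, at 6.22, was a family 1 copy. *Inhbb* had 1 at 2.62 and, of the round spermatid genes, *Tnp1* had 1 at 4.58. The 4 Sertoli peaks were 0.179% of gained distal peaks for a list that made up 0.0337% of genes, against 1 shared distal peak (0.0697%). The round spermatid peak was 0.0448%, for 0.0385% of genes. The spermatogonia, Leydig, peritubular myoid and macrophage lists had 0. Olfactory receptors were nearest to 12 gained distal peaks (0.537%) and vomeronasal receptors to 9 (0.403%), below their 5.42% and 1.58% of all autosomal protein-coding genes, and Zfp genes to 45 (2.01%, against 1.85% of genes). Shared distal peaks had similar shares for these 3 groups, with 9 (0.627%), 5 (0.348%) and 24 (1.67%), so the low receptor shares were not particular to gained peaks.

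The cell type label was checked by promoter peaks. Of the 23 pachytene spermatocyte genes, 17 carried a WT peak and 15 a cKO peak at the promoter. *Sycp1*, *Sycp3*, *Syce1*, *Ybx2*, *Pou5f2* and *Hspa2* had none in WT, and of these *Sycp1* and *Syce1* had one in the cKO. Spermatogonia genes had 1 of 10 and 4 of 10, respectively, round spermatid genes 2 and 4 of 8, Sertoli cell genes 2 and 3 of 8, Leydig cell genes 2 and 2 of 7, peritubular myoid genes 1 and 2 of 4, and macrophage genes 0 in both. The share over all genes is not given, so these counts do not show how far any list differed from other genes. The cKO list was also the longer, with 30244 peaks against 19309 in the WT list. The part of other cell types in the gained distal peaks was not tested.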

How the data were processed

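Per the labels and the study's methods, the authors trimmed ATAC-seq reads with Trim Galore, aligned them to mm10 with Bowtie2, removed duplicates with Picard and mitochondrial reads, called peaks with MACS2 per replicate and intersected the replicates. SAMtools and deepTools are also named. The sources state no mapping quality threshold, and a read from a repeat could then be placed at 1 of several copies. The mice were CD1 and the reference is C57BL/6J. The 2 deposited peak lists, 1 per genotype, hold for each peak a fold enrichment (a ratio to background) and −log10 p and −log10 q values. They hold no read totals, so depth per library is unknown. Names and scores come from 1 set of calls per genotype, and which library or libraries gave it is not stated.

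Rows were collapsed by peak name. Positions were read against GENCODE release 21 and letters from mm10 (Python 3.11.15, numpy 2.4.6, pandas 2.3.3, scipy 1.17.1). Sequence windows were 400 bp wide, and 50-mers sampled every 25 bp were counted in the whole genome. Families came from blastn 2.17.0. Shares have Wilson intervals, their differences score-based intervals, densities exact Poisson intervals, and medians intervals from order statistics. No p-value was computed, since each genotype has 1 list. The regions named were the 10 strongest on 3 or more rows, the 10 strongest of unique sequence, the 3 farthest from a start, those beside each threshold, the longest chain and the strongest with each motif described. Of these, the gene is that with the nearest protein-coding start. Among the regions of unique sequence, 1 is not reported here. Other chains, families and *Atp23* were named after their values were seen. The regions and lists were chosen with earlier results of these data known.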

Additional observations from a re-analysis of the deposited data

How the results depend on the processing

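No paired analysis was possible because each genotype has 1 list with no values per library, and for the same reason no replicate could be left out. GC content (12 alternatives, −3.30 to −0.909 points) and the CpG-island-like share (11 alternatives, −8.21 to −1.75) stayed lower in gained distal peaks, each interval under 0. With starts at least 50000 bp away the number of gained distal peaks was 460, their share 58.75%, the CpG ratio difference −0.0445, the CTCF difference 0.125 points (both intervals contained 0) and the share with a neighbour within 50 kb 18.04%. Requiring a −log10 q of 5 or more left 1180, with a gained share of 49.1%, a CpG ratio difference of −0.0173, with 0 in its interval, and 16.95% with a neighbour. Requiring 10 or more, these values were 392, 30.8%, −0.00779 and 7.14%, the CTCF difference was 0.113 points, the difference in unique sequence was 1.56 points, and the intervals of the CpG ratio, CTCF and unique sequence differences contained 0. There the CCAAT difference was 27.9 points and the masked share turned to 11.5 points. On 3 or more rows they numbered 1281, with 48.9% gained and 20.8% with a neighbour. With only protein-coding genes counted they numbered 3746, with 58.9% gained and 39.3% with a neighbour. With the cKO list cut to the length of the WT list by −log10 q they numbered 808, with 42.2% gained, 11.4% with a neighbour, a CpG ratio difference of −0.01075, a CTCF difference of 1.14 points and a masked share difference of −1.16 points, the intervals of all 3 containing 0. The CCAAT difference was 14.8 points there and 9.19 points with −log10 q of 5 or more. In unique sequence only, 65.8% were gained, the CTCF difference was 1.08 points, the CCAAT difference −0.108 and the YY1 difference 0.138, each with 0 in its interval. The share with a neighbour was 34.0% with starts at least 5000 bp away and 17.95% within 10 kb. The CTCF difference over the whole peak was −0.485 points. Without the largest family, an alternative chosen after seeing the data, the CCAAT difference was −0.0226 points. The cause of these changes was not tested. Read depth and the spread between libraries limit every value and could not be had from 1 list per genotype.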
